A study of Homo sapiens with 9 samples.

Results

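The genes described are the factors that carry out initiation and elongation of translation on cytosolic ribosomes, with the proteins that bind or modify them. They were chosen by name: every gene with at least 1 protein-coding transcript whose symbol begins with EIF or EEF and a digit, leaving out the 4 eIF2α kinases. The rule found 62 of the 58219 genes in the files. Of the 62, 59 passed a filter on low counts and were tested. EIF1AY, EIF2S3L and EIF4E1B, which did not pass it, are not described further. 8 of the factors are mRNAs known for a 5′ terminal oligopyrimidine tract (5′TOP), and these are set apart below: EEF1A1, EEF1B2, EEF1G, EEF2, EIF3E, EIF3F, EIF3H and EIF4B.

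RNA was sequenced from MDA-MB-231, an established human breast carcinoma line that lacks hormone receptors, grown in serum-containing medium. shAPT1 cells carried a lentiviral short hairpin RNA against APT1 (the depalmitoylating enzyme encoded by LYPLA1) and were selected with puromycin. APT1wt cells stably overexpressed wild-type APT1 from a lentivirus. Control cells carried a lentivirus for a scrambled RNA, so the overexpressing cells had no empty overexpression vector beside them here. There were 3 libraries per group. Whether libraries of 1 group stem from different cultures or infections is not stated, so p-values rest on differences among libraries that may be technical repeats. LYPLA1 stood at 38.3, 30.5 and 36.7 TPM (transcript abundance corrected for length and library size) in shAPT1, at 169, 171 and 169.9 TPM in APT1wt and at 87.1, 92.7 and 80.5 TPM in control, in the direction of each label. Libraries held 12381931 to 18667383 estimated reads. Of markers of the line, KRT18 averaged 351 TPM in shAPT1, 336 in APT1wt and 229 in control, while ESR1 and PGR did not pass the filter on low counts. Of the 6 line markers tested, 2 rose and 1 fell in each comparison with control, the one that fell being CD44 in shAPT1 (-0.66 on the log2 scale) and VIM in APT1wt (-0.25). Of 5 markers each of fibroblasts and endothelium, 3 and 3 passed that filter. DCN, LUM, VWF and CDH5 did not, nor did the leukocyte markers PTPRC and CD3E, each averaging under 1 TPM in every group. Of the 3 fibroblast markers tested, 3 rose in shAPT1 and 2 in APT1wt against control, and none fell. Of the 3 endothelial markers tested, 2 rose in shAPT1 and 1 in APT1wt, and none fell. Of all genes tested, 12.8% rose in shAPT1 and 11.8% in APT1wt. The summed fibroblast markers ran from 10.9 to 17.3 TPM in shAPT1, from 10.4 to 12.5 in APT1wt and from 7.41 to 9.36 in control. CD68, a macrophage marker, averaged 80.6 ± 11.4 TPM in shAPT1, 81.1 ± 15.3 in APT1wt and 117 ± 13.6 in control (SD, n = 3). For endothelium, nearly all ESAM, the sums were 57.8 to 75.9 TPM in shAPT1, 101 to 105 in APT1wt and 40 to 49 in control. Their part in the results was not tested.

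Initiation factors bring the initiator tRNA, the mRNA and the ribosomal subunits together at a start codon. eIF2 carries the initiator tRNA, eIF3 is a scaffold on the small subunit, and eIF4E, eIF4G and eIF4A bind and unwind the capped 5′ end of the mRNA. During elongation eEF1A delivers charged tRNAs and eEF2 moves the ribosome along the mRNA. Much of the control of translation by nutrients runs through mTOR, which acts on the eIF4E-binding proteins and on mRNAs that begin with a 5′TOP tract, many of which encode ribosomal proteins and elongation factors.

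The start sites of some factors are shown because a 5′TOP tract stands at the start of the mRNA. The 5′TOP group itself was taken from a list of known mRNAs and not from these letters. EIF3E and EIF3H are named only. Each line gives 10 bases before and 20 from the RefSeq start, 5′ to 3′ on the transcribed strand, in build GRCh38.p14. Capitals mark an unbroken run of C and T that starts with a C at or within 2 bases of the start. The 5′TOP group includes 5 factors with such a run and EEF1G, whose RefSeq start lacks it in this window. EIF3K and EIF2S3 are not in the group but have a run, and EIF3B and EIF1AX have none. EIF5A, which is not shown, has none at any of its 6 RefSeq starts.
EEF1A1 (chr6:73521013-73521042, minus strand): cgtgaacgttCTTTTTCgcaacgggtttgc
EEF1B2 (chr2:206159885-206159914, plus strand): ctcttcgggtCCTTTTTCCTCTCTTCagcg
EEF1G (chr11:62573872-62573901, minus strand): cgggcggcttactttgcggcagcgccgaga
EEF2 (chr19:3985444-3985473, minus strand): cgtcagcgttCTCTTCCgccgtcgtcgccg
EIF3F (chr11:7987327-7987356, plus strand): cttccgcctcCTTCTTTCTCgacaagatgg
EIF4B (chr12:53006446-53006475, plus strand): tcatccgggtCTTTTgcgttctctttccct
EIF3K (chr19:38619178-38619207, plus strand): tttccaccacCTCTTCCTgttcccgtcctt
EIF2S3 (chrX:24054946-24054975, plus strand): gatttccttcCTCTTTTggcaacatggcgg
EIF3B (chr7:2354817-2354846, plus strand): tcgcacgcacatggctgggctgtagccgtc
EIF1AX (chrX:20141819-20141848, minus strand): gagtcgcggcgccatttgctgccgccgagc
The motif searched was a C followed by at least 4 bases that are each C or T, beginning within 2 bases of a RefSeq start, on the transcribed strand only. It was present at a start of 16 of the 49 factors in the table (32.7%). The listed 5′TOP factors had it in 5 of 6 cases, and other factors in 11 of 43 (25.6%). Among all genes listed there, 13.0% had it (3557 of 27305), and of the tested genes 16.4% (1693 of 10324). A match describes these letters and does not show that an mRNA is regulated as a 5′TOP mRNA.

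The factors were abundant. Together they made up 2.47, 2.30 and 2.29% of all TPM in the shAPT1 libraries, 2.49, 2.38 and 2.37% in APT1wt and 2.37, 2.35 and 2.38% in control, ranges that overlap. Of estimated reads they made up 2.57, 2.60 and 2.52% in shAPT1, 2.77, 2.66 and 2.69% in APT1wt and 2.83, 2.65 and 2.70% in control, with every shAPT1 library below every other. EEF1A1 alone supplied 31.4% to 36.6% of the factors' TPM, and the 8 factors listed as 5′TOP supplied 50.8% to 54.8%. Per length, 3 factors averaged at least 1000 TPM in control cells: EEF1A1 (8226 ± 461 TPM, SD, n = 3), EEF1G (1243 ± 11.7) and the helicase gene EIF4A1 (1119.7 ± 22.4). Below them 34 factors stood between 100 and 1000 TPM, 17 between 10 and 100, and 3 between 1 and 10. EIF4E3 and EIF5AL1 averaged under 1 TPM. Levels varied little among the control libraries: the coefficient of variation had a median of 5.58% over the 55 factors with a mean of at least 10 TPM, against 7.05% over the 8794 genes above that floor. These sets share only the floor and were not matched for level.

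In shAPT1 against control, 4 factors rose and 10 fell, in edgeR's quasi-likelihood test with Benjamini-Hochberg adjustment over all 15233 genes tested. That is 23.7% of the 59, close to the 24.4% of all genes that passed. In APT1wt against control, 5 factors rose and 4 fell, or 15.3% of the 59 against 23.4% of all genes. In shAPT1 against APT1wt, 5 rose and 14 fell, or 32.2% against 25.1% of all genes. The median log2 fold change over the factors was -0.03, 0.06 and -0.07 in these comparisons, beside medians within 0.004 of 0 over all genes tested. Among those that passed against control, the largest changes were 0.84 and -0.82 on the log2 scale. The split depended on scaling: with library totals alone, 5 rose and 5 fell in shAPT1 against control, 4 rose and 5 fell in APT1wt against control, and 9 rose and 8 fell in shAPT1 against APT1wt. No factor rose in shAPT1 against control when any control library was left out, and 8 rose without shAPT1 replicate 3, while 3 to 9 fell over the 9 libraries left out in turn. In bulk RNA, fewer cells with a transcript and less of it per cell cannot be told apart.

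**Figure D1:**
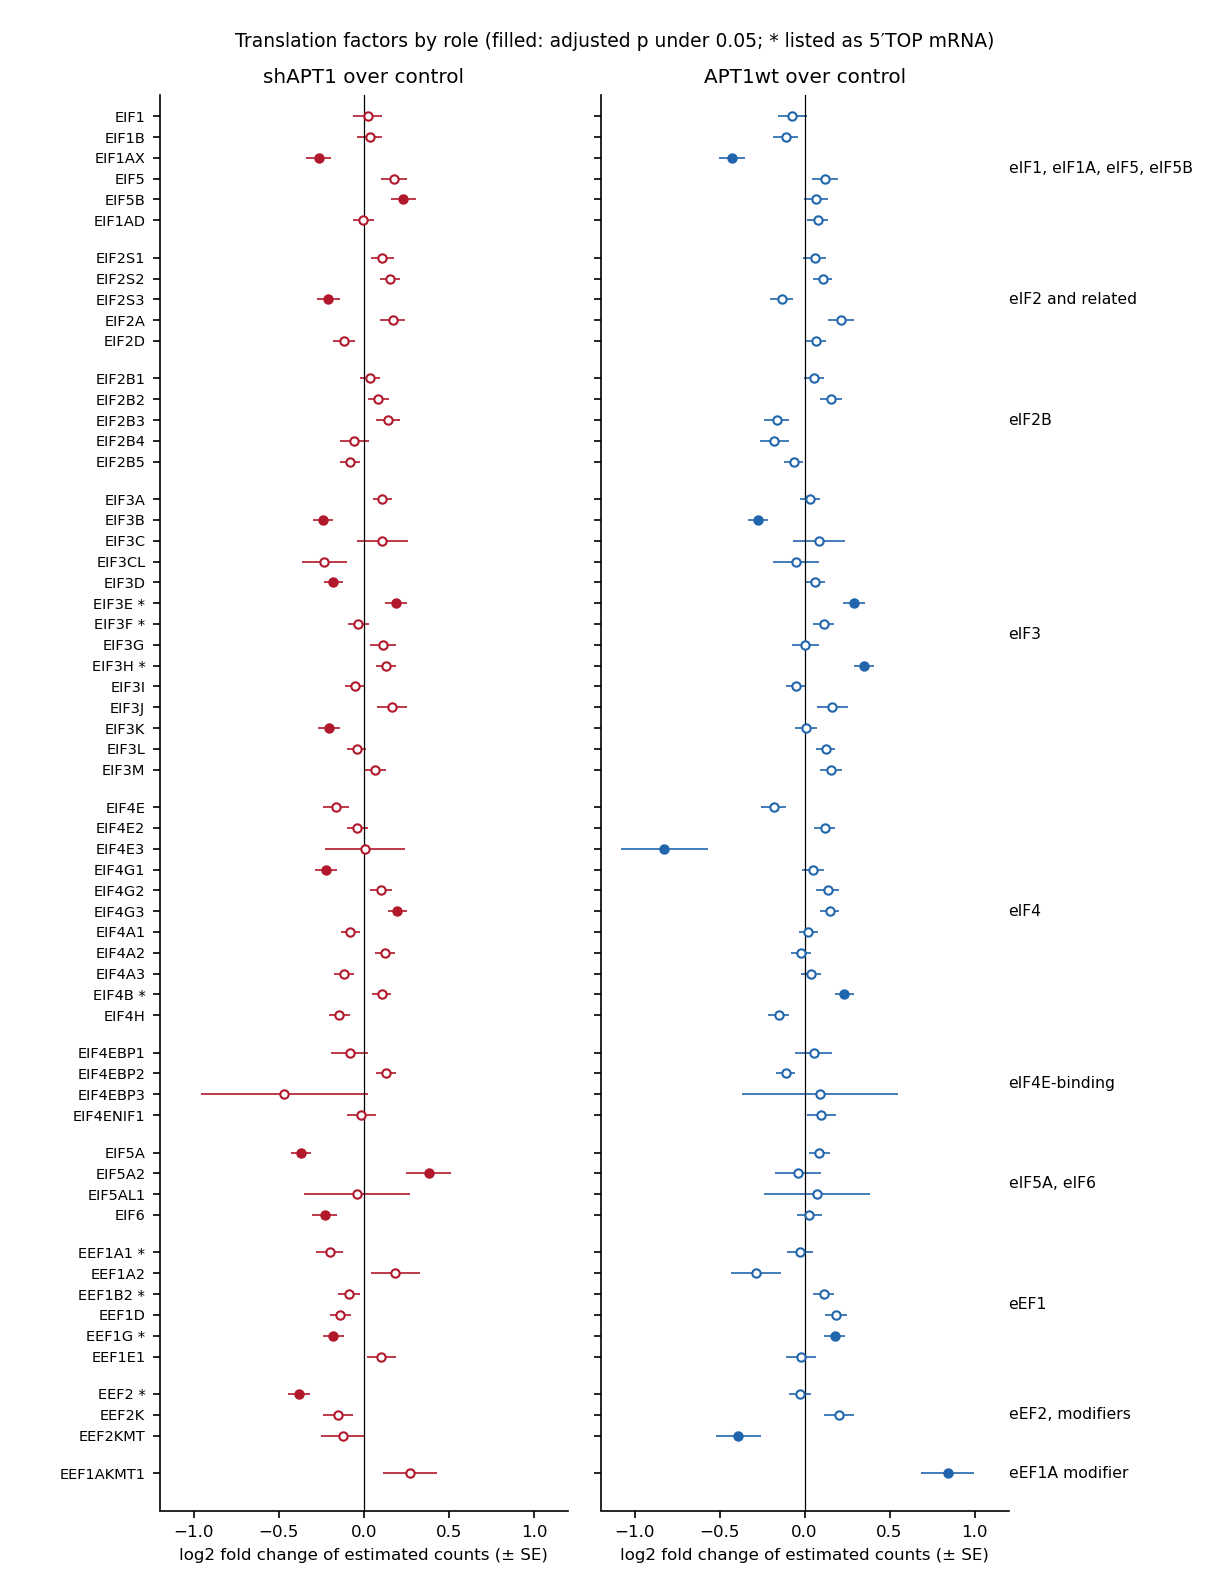
Each point is the log2 fold change of summed estimated counts of 1 tested factor (horizontal axis, ± SE, n = 3 libraries per group), with shAPT1 over control on the left and APT1wt over control on the right. Factors run down the page by role, filled points passed adjusted p 0.05 and asterisks mark the 8 listed 5′TOP mRNAs. EEF2 and EIF5A are the lowest filled points in shAPT1 and EEF1AKMT1 is the highest in APT1wt.

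Values by library are given below as CPM, the summed estimated counts as a rate per library total scaled by edgeR's TMM method. These are the values behind the tests and serve for comparing 1 gene between libraries, while TPM serves for levels of different genes. In CPM the groups did not overlap for 27 of 59 factors in shAPT1 against control (45.8%), against 37.9% of all genes, and for 30 in APT1wt against control (50.8%), against 44.3% of all genes. In shAPT1 against APT1wt the count was also 27, against 39.2% of all genes. On the TPM scale 21, 22 and 21 factors did not overlap in the 3 comparisons, against 31.1%, 35.0% and 32.9% of all genes. All 14 and 9 factors called in the comparisons with control were among those without overlap in CPM. This adds no support to the calls, since the tests rest on the same counts. In TPM, 7 of the 14 and 7 of the 9 did not overlap.

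EEF2 (ENSG00000167658 in GENCODE; chromosome 19, 3976056 to 3985469, minus strand, GRCh38), the GTPase that translocates the ribosome, had 1235, 1366 and 1449 CPM in shAPT1, 1785, 1709 and 1683 in APT1wt and 1824, 1726 and 1729 in control. All 3 shAPT1 libraries were below every other library, while APT1wt and control overlapped. Its log2 fold change in shAPT1 against control was -0.38 ± 0.07 (adjusted p = 0.00069), and in APT1wt against control it was -0.03 ± 0.06 (adjusted p = 0.801). On the TPM scale the groups overlapped, at 1036, 804 and 905 TPM in shAPT1 and 916, 984 and 1024 TPM in control. Nearly all of its TPM came from 2 transcripts. The full-length mRNA ENST00000309311.6, of 3164 nt in 15 exons, had 596, 637 and 719 TPM in shAPT1, 819, 803 and 763 in APT1wt and 820.4, 826 and 810.1 in control, with shAPT1 below the other groups in every library. The 352 nt fragment ENST00000600794.1, whose 5′ end is annotated as not found, had 417, 159.8 and 155 TPM in shAPT1, 159.8, 113 and 153 in APT1wt and 70.9, 135 and 172 in control. Replicate 1 of shAPT1 was the highest for this fragment, and the groups overlapped. A read on a shorter transcript counts for more in TPM. With the mean transcript length of each library as an offset in the fit, the change of EEF2 in shAPT1 was -0.16 (adjusted p = 0.186) and no longer passed, in a fit where 15.2% of all genes passed. Without that offset the change passed in each of the 9 fits that left out a library.

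**Figure D2:**
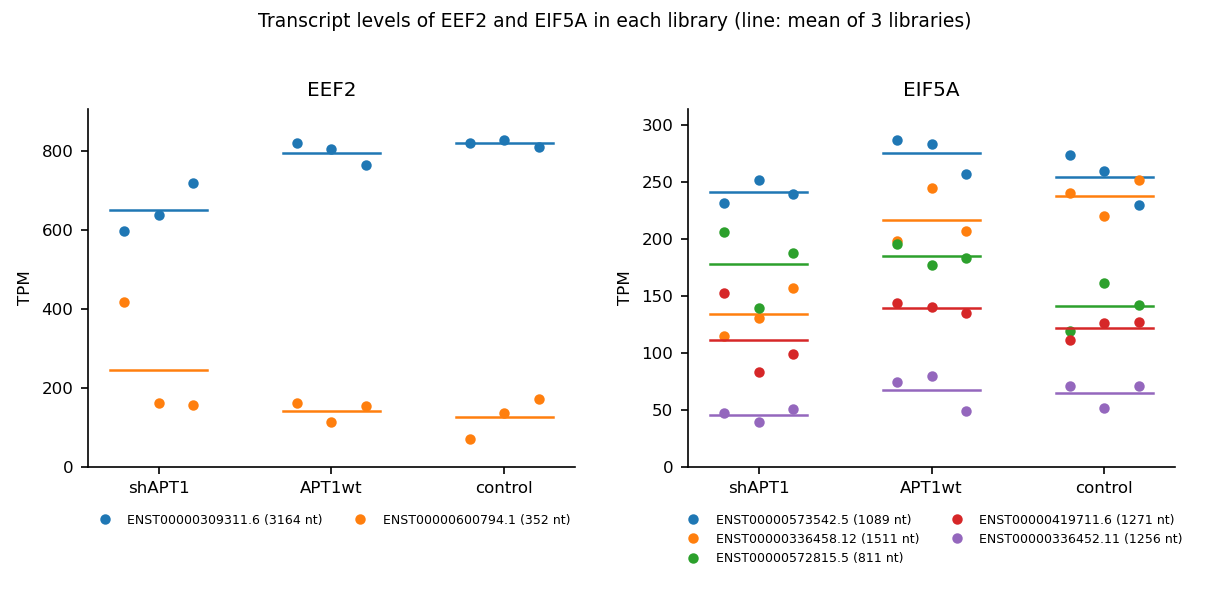
TPM (vertical axis) of single transcripts of EEF2 on the left and EIF5A on the right, with a point for each library and a line at the mean of 3, for shAPT1, APT1wt and control from left to right; transcripts with a group mean of at least 50 TPM are drawn. The long EEF2 mRNA lies at 596 to 719 TPM in shAPT1 and at 810 to 826 TPM in control, and the 1511 nt EIF5A transcript lies at 115 to 156 TPM in shAPT1 and at 220 to 252 TPM in control.

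The eEF1 complex pairs eEF1A with its nucleotide exchange subunits, encoded by EEF1B2, EEF1D and EEF1G. The 6 genes counted here were EEF1A1, EEF1A2, EEF1B2, EEF1D, EEF1G and EEF1E1, the last of which is not among the subunits just named. Of these, EEF1G fell in shAPT1 and rose in APT1wt, and the others did not pass in either comparison. EEF1G (ENSG00000254772 in GENCODE; chromosome 11, 62559601 to 62574086, minus strand) had 969, 1059 and 1077 CPM in shAPT1, 1348, 1311 and 1319 in APT1wt and 1235, 1127 and 1156 in control. The 3 groups did not overlap. The changes against control were -0.18 ± 0.06 (adjusted p = 0.0431) in shAPT1 and 0.18 ± 0.06 (adjusted p = 0.0469) in APT1wt, and both were near the threshold: in shAPT1 the change passed in 1 of the 9 fits that left out a library, and in APT1wt in 3. Of the 31-base words of its main transcript 99.9% also occur in other genes of GENCODE 29, chiefly AP002990.1. That gene is not among those quantified, so no reads were assigned to it. What the shared words do to the values of EEF1G was not tested. EEF1A1 had 8669.6, 9346 and 8169 CPM in shAPT1, 10439, 9437 and 9659.8 in APT1wt and 11181, 9165 and 9767 in control, where the lowest control library fell among the shAPT1 values. It did not pass, at -0.20 ± 0.08 (adjusted p = 0.0739) in shAPT1 and -0.03 ± 0.08 (adjusted p = 0.839) in APT1wt. EEF1B2 and EEF1D had changes of -0.09 and -0.14 in shAPT1 and of 0.11 and 0.18 in APT1wt, none past the threshold. Of the 31-base words of the main EEF1A1 and EEF1B2 transcripts, 62.7% and 68.3% also occur in other genes. These are chiefly EEF1A1P5 and EEF1B2P3, which stayed at or below 5.7 and 1.04 TPM. What the shared words do to the values of EEF1A1 and EEF1B2 was not tested. EEF1A2, the paralog of EEF1A1 best known from muscle and neurons, had 16.3, 21.2 and 25.7 CPM in shAPT1, 14.6, 14.1 and 17.1 in APT1wt and 20.2, 19.5 and 16.4 in control. Its changes against control, 0.18 and -0.29, did not pass.

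EIF5A (ENSG00000132507 in GENCODE; chromosome 17, 7306999 to 7312463, plus strand), the hypusine-bearing factor that helps the ribosome join amino acids at slow stretches such as proline runs, fell in shAPT1. It had 483, 456 and 489 CPM in shAPT1, 661, 681 and 618 in APT1wt and 639.9, 587 and 617 in control. Every shAPT1 library was below every library of the other groups, and APT1wt overlapped control. The log2 fold change in shAPT1 was -0.37 ± 0.06 (adjusted p = 0.000548), and in APT1wt it was 0.09 ± 0.06 (adjusted p = 0.333). EIF5A was the only one of the 14 factors called in shAPT1 that passed in all 9 fits without a library and in all 11 other settings. Among its transcripts, ENST00000336458.12, whose 5′ untranslated region spans 401 bases, had 115, 130.2 and 156 TPM in shAPT1, 198, 245 and 207 in APT1wt and 240.1, 219.9 and 252 in control, with shAPT1 apart from control. The most abundant in control, ENST00000573542.5, had 232, 252 and 239 TPM in shAPT1 and 273, 259.8 and 229.8 TPM in control, and the groups overlapped. Of the 31-base words of that transcript, 49.9% also occur in other genes, chiefly EIF5AL1, which stayed at or below 1.06 TPM in every library.

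EIF5A2, the less abundant paralog, moved the other way in shAPT1. It had 78.5, 52.5 and 49.0 CPM in shAPT1, 45.4, 43.3 and 45.0 in APT1wt and 45.7, 44.0 and 47.7 in control. The shAPT1 libraries were all above control, with replicate 1 far above the other two. The change was 0.38 ± 0.13 (adjusted p = 0.0491), and without that library it was 0.15 and did not pass. EIF6, which keeps the large ribosomal subunit from joining early, fell in shAPT1, with 191, 225 and 232 CPM in shAPT1, 259, 262 and 254 in APT1wt and 236, 262 and 262 in control. Its change was -0.23 ± 0.07 (adjusted p = 0.0346) in shAPT1, past the threshold in 3 of the 9 fits without a library, and 0.03 in APT1wt.

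Of the 11 cap-binding and helicase factors tested, EIF4G3 rose and EIF4G1 fell in shAPT1, and EIF4B rose and EIF4E3 fell in APT1wt. EIF4G1 (ENSG00000114867 in GENCODE; chromosome 3, 184314495 to 184335358, plus strand), the main scaffold between cap and ribosome, had 997, 1112 and 1162 CPM in shAPT1, 1325, 1306 and 1321 in APT1wt and 1219, 1288 and 1315 in control. All shAPT1 libraries were below the control libraries, which overlapped with APT1wt. The changes were -0.22 ± 0.06 (adjusted p = 0.0196) in shAPT1 and 0.05 ± 0.06 (adjusted p = 0.64) in APT1wt, and with the length offset the shAPT1 change was -0.20 (adjusted p = 0.0511). EIF4G3, a paralog, had 137, 136 and 139.6 CPM in shAPT1 against 119, 119 and 123 in control, groups that did not overlap, with a change of 0.20 ± 0.06 (adjusted p = 0.0221). That change passed in 5 of the 9 fits without a library and in 7 of the 11 other settings, and with the length offset it was 0.13 (adjusted p = 0.267). EIF4G2, which supports initiation without eIF4E, had changes of 0.10 in shAPT1 and 0.14 in APT1wt and did not pass.

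EIF4B (ENSG00000063046 in GENCODE; chromosome 12, 53006158 to 53042209, plus strand), which stimulates the helicase, had 416, 382 and 376 CPM in shAPT1, 430.3, 424 and 429 in APT1wt and 368, 359.5 and 363 in control. APT1wt lay above every other library and shAPT1 above control. In APT1wt the change was 0.23 ± 0.06 (adjusted p = 0.00839), and it was the only one of the 9 called there that passed in every setting. In shAPT1 it was 0.11 ± 0.06 (adjusted p = 0.205). The cap-binding protein gene EIF4E had 138, 112 and 115 CPM in shAPT1, 119, 117 and 123 in APT1wt and 138, 131 and 139 in control. It passed in neither comparison, at -0.16 ± 0.08 (adjusted p = 0.14) in shAPT1 and -0.18 ± 0.08 (adjusted p = 0.101) in APT1wt. EIF4A1 and EIF4A2, the helicases, had fold changes of -0.08 and 0.13 in shAPT1 and of 0.02 and -0.02 in APT1wt, none past the threshold. EIF4E3, chosen after its values were seen because it completes the count, averaged under 1 TPM in every group and had a change of -0.82 ± 0.25 (adjusted p = 0.03) in APT1wt. It passed in 5 of the 9 fits without a library and in 6 of the 11 other settings, and with the length offset it was -0.47 (adjusted p = 0.321).

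Of the 4 genes for eIF4E-binding proteins and the eIF4E transporter, none passed in either comparison with control. EIF4EBP1 had 36.1, 47.3 and 52.6 CPM in shAPT1, 52.4, 49.4 and 48.3 in APT1wt and 52.6, 46.2 and 46.1 in control, and all groups overlapped. EIF4EBP2 had 222, 222 and 209 CPM in shAPT1, 180, 186 and 187 in APT1wt and 192, 203 and 202 in control. Its groups lay apart, shAPT1 above control and APT1wt below it, with changes of 0.13 ± 0.06 (adjusted p = 0.115) and -0.11 ± 0.06 (adjusted p = 0.179). By edgeR's unadjusted p, 1 of the 4 passed in shAPT1 and 0 in APT1wt, and by DESeq2 0 passed in shAPT1 and 0 in APT1wt.

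**Figure D3:**
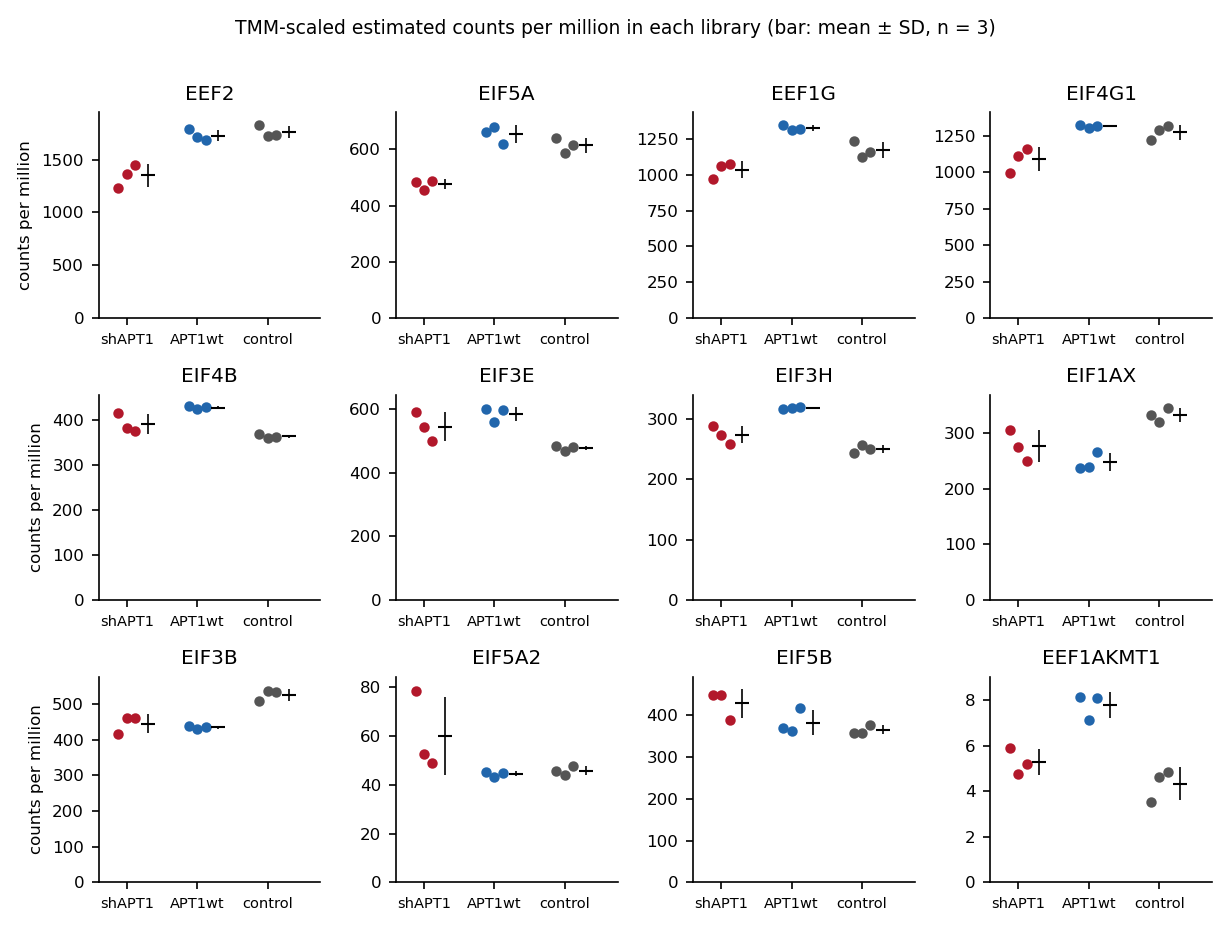
CPM (vertical axis, from 0) of 12 factors in each of the 9 libraries, with shAPT1, APT1wt and control from left to right and the mean ± SD of 3 beside each group. EEF2 and EIF5A lie lower in all 3 shAPT1 libraries than elsewhere, EIF4B and EIF3H lie highest in APT1wt, and EIF1AX and EIF3B lie highest in control.

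eIF3 has 14 tested genes here, counting EIF3C and its near copy EIF3CL. In shAPT1 EIF3E rose, and EIF3B, EIF3D and EIF3K fell. In APT1wt EIF3E and EIF3H rose, and EIF3B fell. EIF3B (ENSG00000106263 in GENCODE; chromosome 7, 2354086 to 2380745, plus strand), a core subunit, had 414, 460.2 and 460 CPM in shAPT1, 438, 430.1 and 436 in APT1wt and 506, 535 and 534 in control. Both other groups were below every control library. The changes were -0.24 ± 0.06 (adjusted p = 0.00877) in shAPT1 and -0.27 ± 0.06 (adjusted p = 0.00415) in APT1wt, and both passed in all 9 fits without a library. With the length offset the shAPT1 change was -0.17 (adjusted p = 0.117). EIF3E (ENSG00000104408 in GENCODE; chromosome 8, 108201216 to 108435333, minus strand) had 590.4, 543 and 499 CPM in shAPT1, 598, 558 and 597 in APT1wt and 482, 469 and 480.2 in control. All libraries of shAPT1 and APT1wt were above control and overlapped with each other. Its changes were 0.19 ± 0.07 (adjusted p = 0.0486) in shAPT1, which passed in 1 of the 9 fits without a library, and 0.29 ± 0.07 (adjusted p = 0.00527) in APT1wt, which passed in all 9. EIF3H had 289, 274 and 259.5 CPM in shAPT1, 317, 318 and 321 in APT1wt and 244, 257 and 249.9 in control. The groups did not overlap, with APT1wt highest and control lowest. It changed by 0.35 ± 0.06 (adjusted p = 0.00058) in APT1wt, and in shAPT1 the fold change was 0.13 ± 0.06 (adjusted p = 0.116), which did not pass.

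EIF3K, a peripheral subunit, had 88.8, 98.2 and 96.7 CPM in shAPT1 and 111, 109.6 and 107 in control, without overlap, and its change of -0.21 ± 0.06 (adjusted p = 0.032) passed in 5 of the 9 fits without a library. EIF3D, chosen after its values were seen, changed by -0.18 ± 0.05 (adjusted p = 0.0246) in shAPT1. EIF3F, a listed 5′TOP mRNA, had 202, 206 and 207 CPM in shAPT1, 234, 223 and 222 in APT1wt and 227, 205 and 198 in control and did not pass in either comparison. Of the 31-base words of its main transcript 58.4% also occur in other genes, chiefly EIF3FP3, which stayed at or below 3.47 TPM. The largest subunit's gene, EIF3A, and the remaining ones did not pass against control. EIF3C and EIF3CL share 95.1% and 99.4% of the 31-base words of their main transcripts, so their separate values are uncertain. Their summed level was 268 to 315 TPM over all libraries.

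Around start codon recognition, EIF5B rose and EIF1AX fell in shAPT1, and EIF1AX fell in APT1wt. EIF1AX (ENSG00000173674 in GENCODE; chromosome X, 20124518 to 20141844, minus strand), which keeps the scanning ribosome open, had 306, 274 and 249 CPM in shAPT1, 238, 239 and 266 in APT1wt and 332, 319 and 345 in control. Every control library was above the other 6, which overlapped. The changes were -0.27 ± 0.08 (adjusted p = 0.0191) in shAPT1 and -0.42 ± 0.08 (adjusted p = 0.00106) in APT1wt, and the shAPT1 change passed in 6 of the 9 fits without a library. The 765 nt EIF1AX transcript ENST00000379593.1 shares 37.7% of its 31-base words with other genes, chiefly EIF1AXP1, which reached 54.3 TPM. The 4427 nt transcript ENST00000379607.9 was not examined in this way. The values of EIF1AX are therefore uncertain, to an extent that was not measured. EIF5B, which joins the ribosomal subunits, had 449, 448 and 389 CPM in shAPT1 against 359, 359 and 378 in control, all above. Its change was 0.23 ± 0.07 (adjusted p = 0.0316) and passed in 4 of the 9 fits without a library. Of the eIF2 genes, the γ subunit gene EIF2S3 fell in shAPT1, with 381, 334 and 331 CPM in shAPT1 against 396, 399 and 414 in control and a change of -0.21 ± 0.07 (adjusted p = 0.0321), past the threshold in 4 of the 9 such fits. The α subunit gene EIF2S1, whose product the stress kinases phosphorylate, had 289, 246 and 244 CPM in shAPT1, 246, 253 and 256 in APT1wt and 235, 247 and 241 in control, and passed in neither comparison. None of the 5 genes for eIF2B, the exchange factor of eIF2, passed against control in edgeR's test. By unadjusted p 0 passed in shAPT1 and 2 in APT1wt, and by DESeq2 0 and 0 passed after adjustment.

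Among the enzymes that modify elongation factors, EEF1AKMT1 rose and EEF2KMT fell in APT1wt. EEF1AKMT1 (chromosome 13, 20728731 to 20773958, minus strand), a lysine methyltransferase of eEF1A, had 5.88, 4.76 and 5.20 CPM in shAPT1, 8.13, 7.11 and 8.09 in APT1wt and 3.53, 4.65 and 4.84 in control. APT1wt was above every other library, while shAPT1 and control overlapped. Its change of 0.84 ± 0.15 (adjusted p = 0.00126) in APT1wt was the largest rise of any factor in that comparison. EEF2KMT, which methylates eEF2, had 9.62, 13.8 and 12.9 CPM in shAPT1, 11.0, 10.2 and 9.24 in APT1wt and 12.9, 13.5 and 13.4 in control. Its change of -0.39 ± 0.13 (adjusted p = 0.0457) in APT1wt passed in 4 of the 9 fits without a library. It did not pass with DESeq2, nor with the length offset, at -0.215 (adjusted p = 0.376). Of the 31-base words of its main transcript 54.9% also occur in other genes, chiefly FAM86EP, which reached 5.82 TPM. The values of EEF2KMT are therefore uncertain, to an extent that was not measured. EEF2K, the kinase that inhibits eEF2, had 26.3, 31.2 and 26.5 CPM in shAPT1, 33.3, 38.2 and 36.0 in APT1wt and 30.1, 31.9 and 31.3 in control. It did not pass against control, at -0.15 ± 0.09 (adjusted p = 0.236) and 0.20 ± 0.09 (adjusted p = 0.109).

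Among the 8 listed 5′TOP factors the calls in APT1wt were all upward. In APT1wt against control 4 of 8 rose (EIF3H, EIF3E, EIF4B and EEF1G) and none fell, with a median log2 fold change of 0.145, while 1 of the other 51 rose and 4 fell, with a median of 0.05. In shAPT1 against control 1 of 8 rose (EIF3E) and 2 fell (EEF2 and EEF1G), with a median of -0.06, beside 3 higher and 8 lower of the other 51 and a median of -0.02. In shAPT1 against APT1wt none of the 8 rose and 4 fell, with a median of -0.19, beside 5 higher and 10 lower of the others and a median of -0.02. Of all genes tested, 11.8% rose and 11.6% fell in APT1wt against control. The other 51 factors were called less often there, at 9.8% beside 23.4% of all genes. For shAPT1, 12.8% of all genes rose and 11.6% fell against control, and 12.7% and 12.4% against APT1wt. Whether the counts of the 8 differ from these shares was not tested. The medians of the 8 kept their sign with library totals alone and with RLE scaling. With the deviation of neighbouring genes on the chromosome removed, 1 of the 8 passed in APT1wt, EIF4B. The changes there were 0.20 for EIF4B, 0.15 for EIF3H, 0.12 for EEF1G, 0.06 for EIF3E and 0.06 for EIF3F. EEF1A1, EEF2 and EEF1B2 were at -0.04, -0.02 and -0.0007. Factors outside the list that have a run at their RefSeq start numbered 11, of which 3 fell and none rose in shAPT1 and none passed in APT1wt by edgeR's test, with medians of 0.07 in both. Tested gene entries with such a run, some sharing a symbol, numbered 1696 over all genes. Of these, 231 rose and 230 fell in shAPT1, and 210 rose and 209 fell in APT1wt.

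Set against each other, shAPT1 and APT1wt differed in 19 factors, beside 14 and 9 for shAPT1 and APT1wt against control, and the 3 comparisons share their libraries. The order of these counts depended on the fit: with only the 2 groups compared in each fit, they were 14, 5 and 19. EEF1G changed by -0.36 ± 0.06 (adjusted p = 0.000709) in shAPT1 against APT1wt, EIF5A by -0.46 ± 0.06 (adjusted p = 9.91e-05) and EIF4G1 by -0.27 ± 0.06 (adjusted p = 0.00648). With EIF4EBP2 at 0.24 ± 0.06 (adjusted p = 0.00652), these 4 of the 19 factors called passed in every setting tried. All 3 of the lower ones had no overlap between the groups in CPM. EEF2 changed by -0.35 ± 0.07 (adjusted p = 0.00126), EEF2K by -0.35 ± 0.09 (adjusted p = 0.00811) and EEF1D by -0.32 ± 0.06 (adjusted p = 0.00214). Each was lower in shAPT1 and passed in all 9 fits without a library. With the neighbouring genes' deviation removed, as described below, none of the 3 passed, at -0.09 (adjusted p = 0.226) for EEF2, -0.25 (adjusted p = 0.0558) for EEF2K and -0.17 (adjusted p = 0.052) for EEF1D. With the length offset EEF2 stood at -0.15 (adjusted p = 0.207) and EEF2K at -0.35 (adjusted p = 0.0734), while EEF1D still passed. EIF6 changed by -0.26 and EEF1AKMT1 by -0.57, past the threshold in 8 of the 9 such fits. EIF6 missed it without APT1wt replicate 2, at -0.25, and EEF1AKMT1 without shAPT1 replicate 2, at -0.50. Neither passed with the neighbours' deviation removed, at -0.16 (adjusted p = 0.116) for EIF6 and -0.15 (adjusted p = 0.438) for EEF1AKMT1. Nor did they with the length offset, at -0.21 (adjusted p = 0.0719) and -0.55 (adjusted p = 0.0595). Among those higher in shAPT1, EIF2B3, the γ subunit of eIF2B, changed by 0.31 ± 0.07 (adjusted p = 0.00634), with 35.0, 32.5 and 33.7 CPM in shAPT1 and 27.5, 26.6 and 27.6 in APT1wt, groups that lay apart, and was at 0.18 (adjusted p = 0.094) with the neighbours' deviation removed. EEF1A2 changed by 0.47 ± 0.14 (adjusted p = 0.0278) and EIF5A2 by 0.42 ± 0.13 (adjusted p = 0.0306), and EEF1A2 was the only one of the 19 whose groups overlapped in CPM. They passed in 5 and 6 of the 9 fits without a library, with lowest changes of 0.31 for EEF1A2 and 0.19 for EIF5A2, and with the length offset neither passed, at 0.46 (adjusted p = 0.0575) and 0.38 (adjusted p = 0.062). The others called, named after their values were seen, were EIF4E3 on the higher side and EIF3D, EIF3H, EIF3K, EIF3L, EEF1B2 and EIF2D on the lower.

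Several of the changed factors lay in stretches of chromosome whose other genes had shifted medians in the same direction. The median log2 fold change of the nearest tested genes, up to 50 on each side, was 0.88 around EEF1AKMT1 in APT1wt, beside 0.84 for the gene itself. On chromosome 8 it was 0.27 around EIF3E and 0.24 around EIF3H in APT1wt, and 0.24 and 0.22 in shAPT1. On chromosome X it was -0.44 around EIF1AX and -0.46 around EIF2S3 in APT1wt, and -0.18 and -0.21 in shAPT1. EEF2 had neighbours at -0.27 in shAPT1 and 0.00 in APT1wt. By contrast it was -0.06 around EIF5A in shAPT1 and 0.01 around EIF4B in APT1wt, where the genes changed by -0.37 and 0.23. The neighbours' deviation was then removed from each library, in a fit by limma-voom and not by edgeR. There the fold change in APT1wt was -0.05 (adjusted p = 0.844) for EEF1AKMT1, -0.01 (adjusted p = 0.962) for EIF1AX and -0.07 (adjusted p = 0.415) for EIF3B. For EIF3E and EIF3H it was 0.06 (adjusted p = 0.477) and 0.15 (adjusted p = 0.0549) in APT1wt, and for EIF3E -0.08 (adjusted p = 0.271) in shAPT1. In shAPT1 it was -0.11 (adjusted p = 0.133) for EEF2, -0.10 (adjusted p = 0.316) for EIF1AX, -0.14 (adjusted p = 0.0878) for EIF3B and -0.01 (adjusted p = 0.913) for EIF2S3. None of these passed any longer. In all, 10 of the 14 factors called in shAPT1 against control were lost, with EIF3D, EIF3K, EIF6, EIF5A2 and EEF1G beside EIF3E and those 4. Also lost were 7 of the 9 in APT1wt against control and 11 of the 19 in shAPT1 against APT1wt. With limma-voom and no removal, EIF5A2 in shAPT1 against control was the only called factor that did not pass. Other factors passed with that removal but not in the main edgeR fit, 5, 2 and 5 in the 3 comparisons. EEF1A1 was at -0.33 (adjusted p = 0.00825) in shAPT1 against control and -0.29 (adjusted p = 0.0165) in shAPT1 against APT1wt. EIF2S3 was at 0.31 (adjusted p = 0.00219) in APT1wt against control, beside -0.13 without the removal. EIF5A still passed in shAPT1, at -0.30 (adjusted p = 0.00172), and EIF4B in APT1wt, at 0.20 (adjusted p = 0.0459). After that removal 20.2% of all genes passed in shAPT1 against control, 14.8% in APT1wt against control and 21.9% in shAPT1 against APT1wt. Over the 59 factors, the factor's change and the median of its neighbours correlated with Pearson's r of 0.48 in shAPT1 and 0.70 in APT1wt (Spearman's rho 0.42 and 0.60). The points share libraries and, within a chromosome arm, neighbours. What moved these stretches was not tested.

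**Figure D4:**
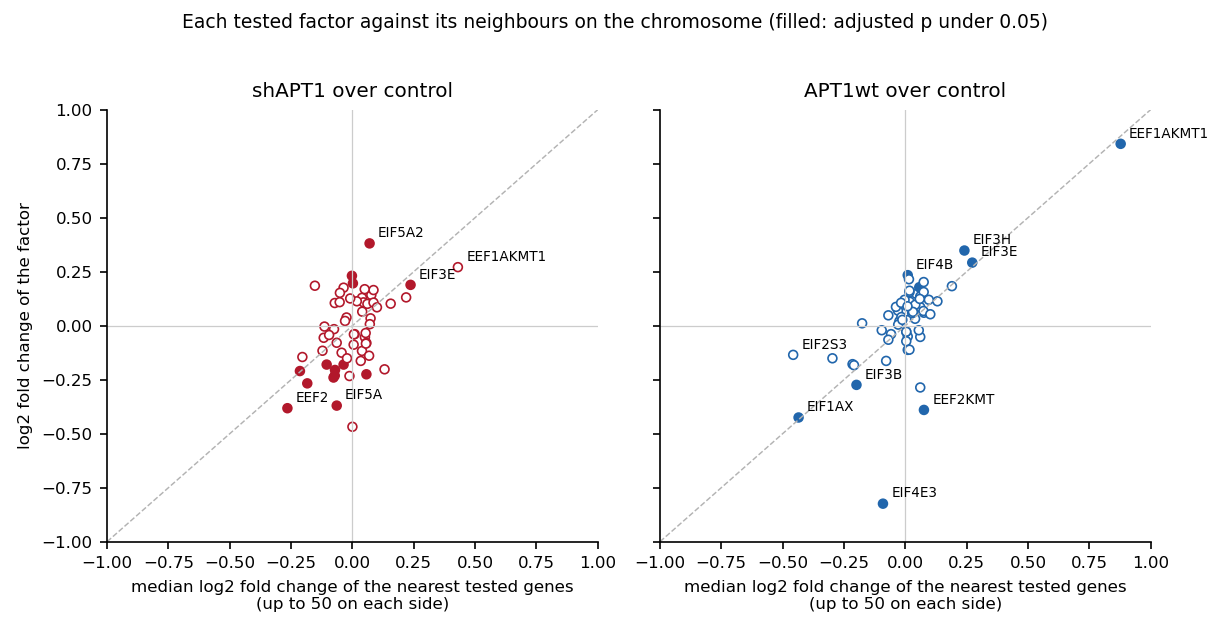
Each point is 1 tested factor: the horizontal axis gives the median log2 fold change of its nearest tested genes on the chromosome (up to 50 on each side) and the vertical axis its own log2 fold change, with shAPT1 over control on the left and APT1wt over control on the right. Filled points passed adjusted p 0.05 and the dashed line marks equality. EEF1AKMT1 and EIF1AX lie near the line in APT1wt, while EIF5A in shAPT1 and EIF4B in APT1wt lie far from it, with neighbours near 0.

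Shares of paralogs were compared in TPM. EIF4A1 made up 70.2, 72.7 and 71.4% of the TPM of EIF4A1 and EIF4A2 in shAPT1 and 75.6, 73.5 and 73.2% in control, without overlap. EIF5A2 made up 5.76, 5.92 and 4.31% of the TPM of EIF5A and EIF5A2 in shAPT1, against 3.72, 3.38 and 3.68% in control. For EIF4G1 the share of the 3 EIF4G genes was 30.1, 33.5 and 36.6% in shAPT1 and 38.2, 40.1 and 38.6% in control. EIF4EBP2 stood at 29.6, 38.0 and 32.3% of the TPM of EIF4E in shAPT1, against 27.2, 27.5 and 25.1% in control. These 4 lay apart from control in every shAPT1 library. In APT1wt it was EIF4E that differed, at 63.2, 67.8 and 67.9% of the TPM of EIF4E, EIF4E2 and EIF4E3, against 71.4, 71.1 and 74.5% in control, with EIF4EBP1 at 82.3, 73.9 and 67.3% of EIF4E in APT1wt against 65.9, 57.9 and 53.5% in control. Each of these 6 reached the smallest p that a two-sided exact permutation test of 3 against 3 libraries allows, 0.1, out of 16 such tests, so none can pass 0.05. The shares of EEF1A2 and EIF1B overlapped in both comparisons. Of the 31-base words of the main EIF4E transcript 50.8% also occur in other genes of GENCODE 29, so shares that involve it are uncertain. All words of the main EIF4A1 transcript also occur elsewhere, chiefly in AC016876.2 (95.1%). That gene is not among those quantified, and what the shared words do to the EIF4A1 share was not tested.

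**Figure D5:**
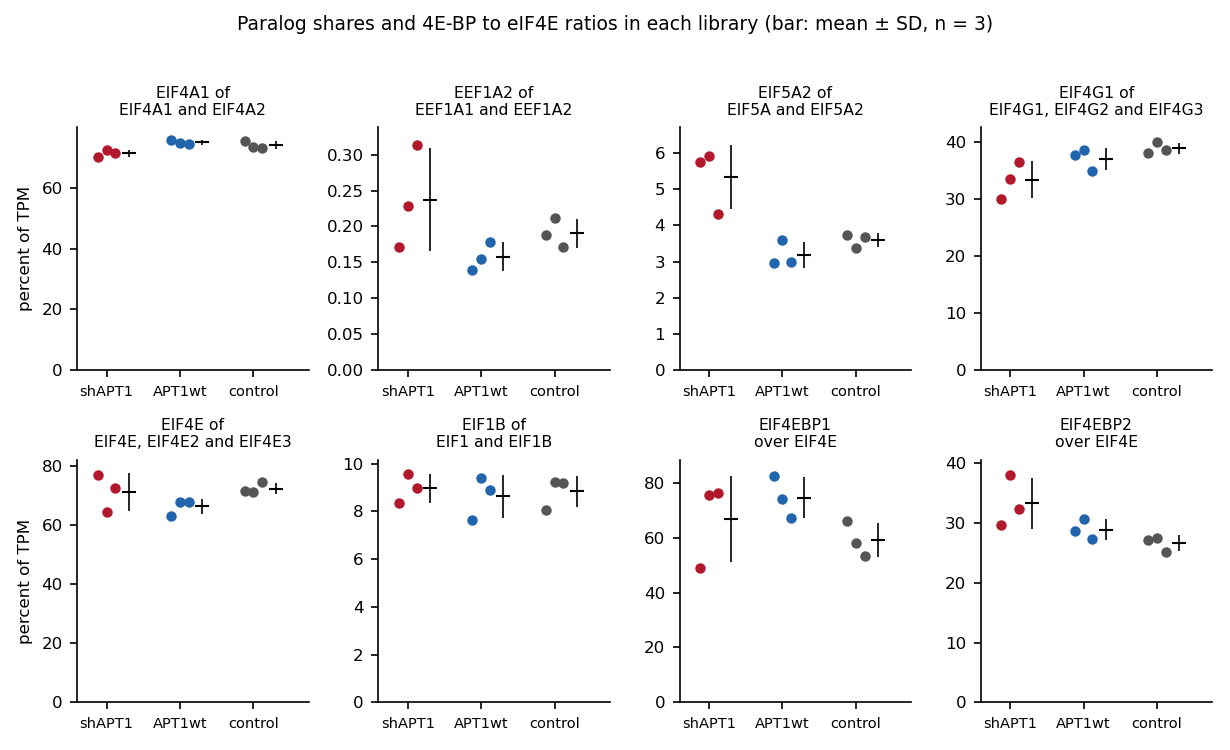
Percent of TPM (vertical axis, from 0) for 6 paralog shares and for EIF4EBP1 and EIF4EBP2 relative to EIF4E in each library, with shAPT1, APT1wt and control from left to right and the mean ± SD of 3 beside each group. EIF4A1 and EIF4G1 have lower shares in shAPT1 than in control, EIF5A2 and EIF4EBP2 have higher ones, and EIF4E has a lower share in APT1wt.

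Single transcripts were compared by whether the groups overlapped in TPM. Of 166 factor transcripts with a mean of at least 10 TPM, 31 did not overlap between shAPT1 and control in TPM (18.7%), against 29.1% of all 11979 transcripts at that level, and 32 did not overlap between APT1wt and control (19.3%), against 32.0%. The share of a gene's TPM in transcripts annotated as protein coding had a median of 91.9% over the 53 factors with at least 10 TPM in every library, and of 87.9% over all 7620 such genes. It was at least 90% for 28 factors and under 50% for 5, EIF2B2, EIF3L, EIF3M, EIF2S1 and EIF4A2. The share did not overlap between shAPT1 and control for 1 of 53 factors, EIF2S3, against 9.71% of all genes. EIF2S3 had 89.3, 88.8 and 90.3% in shAPT1, 88.2, 91.5 and 90.1% in APT1wt and 86.1, 87.7 and 87.5% in control, lowest in control. Between APT1wt and control it did not overlap for 4 of 53 factors, against 9.38% of all genes. The largest shifts were those of EIF4A3, EIF2S3 and EIF3M. EIF4A3, the helicase of the exon junction complex, had 95.9, 91.1 and 94.6% in APT1wt and 96.4, 98.0 and 99.6% in control. Between shAPT1 and APT1wt it did not overlap for 2 of 53, EIF4A2 and EIF5A, against 9.06% of all genes. EIF4A2 had 42.7, 42.8 and 44.2% in shAPT1 and 41.1, 37.4 and 38.0% in APT1wt.

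Of the genes that act on or with the factors, 15 are partners of initiation: 5 rose (PABPC1, PAIP2, PAIP2B, DENR and PDCD4) and 2 fell (DHX29 and CYFIP1) in shAPT1, and PABPC1 rose and none fell in APT1wt. PAIP2, DENR, DHX29 and CYFIP1 are named after their values were seen, as are EIF2AK1, PPP1R15B, MKNK1, RPS6 and RPS6KB2 in the lists that follow. The 7 of 15 in shAPT1 are 46.7%, beside 24.4% of all genes, and the 1 in APT1wt is 6.67%, beside 23.4%; the same shares of all genes stand beside the lists that follow. Whether these counts differ was not tested. PABPC1, the poly(A)-binding protein that contacts eIF4G, averaged 2562 ± 54.3 TPM in shAPT1, 2926 ± 122 in APT1wt and 2112 ± 60.9 in control (SD, n = 3), with changes of 0.31 ± 0.06 (adjusted p = 0.00173) and 0.48 ± 0.06 (adjusted p = 5.22e-05). It lies on chromosome 8, and with its neighbours' deviation removed the changes were 0.05 (adjusted p = 0.619) and 0.25 (adjusted p = 0.0109). PDCD4, which inhibits eIF4A, averaged 30.7 ± 4.33 TPM in shAPT1 and 19.1 ± 5.12 in control and rose by 0.46 ± 0.09 (adjusted p = 0.00212), with -0.06 in APT1wt. Of the 10 eIF2α kinases and stress genes, 2 rose in shAPT1 (EIF2AK3 and PPP1R15B) and 3 fell in APT1wt (ATF3, PPP1R15A and EIF2AK1). EIF2AK3, the kinase of the endoplasmic reticulum, rose by 0.45 ± 0.09 (adjusted p = 0.00204) in shAPT1, and ATF3 fell to 3.63 ± 1.22 TPM in APT1wt, against 7.37 ± 1.33 in control, at -0.99 ± 0.22 (adjusted p = 0.00426). PPP1R15A, which brings a phosphatase to eIF2α, changed by -0.44 ± 0.12 (adjusted p = 0.0204) in APT1wt. With the neighbours' deviation removed, PPP1R15B did not pass in shAPT1, at 0.13 (adjusted p = 0.204). Nor did PPP1R15A and EIF2AK1 in APT1wt, at -0.37 (adjusted p = 0.0679) and -0.01 (adjusted p = 0.956). EIF2AK3 in shAPT1 and ATF3 in APT1wt still passed. Of 20 genes of mTOR and MNK signalling tested, 2 rose (SESN3 and MKNK1) and 2 fell (RPS6 and RPS6KB2) in shAPT1, and 2 rose (DDIT4 and MKNK1) and 1 fell (PRKAA2) in APT1wt. DDIT4, an mTOR inhibitor, rose by 0.73 ± 0.22 (adjusted p = 0.0285) in APT1wt. SESN3 rose by 1.94 in shAPT1 at a level under 1 TPM, and PRKAA2, a subunit of AMP-activated kinase, fell in APT1wt, with a change of -0.66 ± 0.11 (adjusted p = 0.000567). Of 13 genes for the making of hypusine and diphthamide on factors or for selenocysteine decoding, DPH1, needed for diphthamide on eEF2, and DPH7 fell in shAPT1 (-0.48 and -0.30), and DPH7 in APT1wt (-0.28), or 15.4% and 7.69%. With its neighbours' deviation removed DPH7 did not pass, at 0.11 (adjusted p = 0.257) in shAPT1 and -0.03 (adjusted p = 0.786) in APT1wt. Over all 96 genes of these and the lists given in the closing section, 16 rose and 8 fell in shAPT1, and 10 rose and 8 fell in APT1wt, with medians of 0.07 and 0.00. Those are 25.0% and 18.8% of the 96, beside 24.4% and 23.4% of all genes tested.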

How the data were processed

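RNA of 9 MDA-MB-231 libraries was analysed, 3 each of shAPT1, APT1wt and control, grouped by their labels. The authors deposited a Salmon table per library with estimated counts, TPM and an effective length for each transcript, and a gene table of scaled signal whose scaling is not given in the sources used here. Per the submitters' processing notes, FastQC, Salmon and DESeq2 were used with build GRCh38.p10, with no versions. The deposited estimated counts and TPM were summed over 199324 transcripts to 58219 genes and counts were rounded. Positions are those of GENCODE 29 on GRCh38, and start sequences are from RefSeq.

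edgeR 4.0.16 in R 4.3.3 fitted all 9 libraries in 1 quasi-likelihood model with TMM scaling and its default filter on low counts, with Benjamini-Hochberg adjustment at 0.05 over 15233 genes. The fit was tested on simulated data. Depth was 12381931 to 18667383 reads per library. Results were recomputed with DESeq2 1.42.0, limma-voom (limma 3.58.1), RLE scaling, library totals alone, no filter, at least 20 reads in 3 samples, a transcript length offset, the deposited scaled table with limma on log2(value + 1), only the 2 groups compared, a replicate block, removal of the neighbours' deviation in a limma-voom fit, and leaving out each library. Paralog shares were compared by exact permutation. Factors named were the 8 listed 5′TOP mRNAs, 13 further factors and, per comparison, up to 8 called each way with the largest change and a mean of at least 1 TPM; other lists gave up to 3 genes. The members and lists were chosen with earlier results of these data known. Figures were drawn with matplotlib 3.10.9.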

Additional observations from a re-analysis of the deposited data

How the results depend on the processing

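The 76 fold changes of factors named by rule were recomputed, not those of all factors. Under the 11 other settings, 739 values kept their side of the threshold, 84 no longer passed, 10 newly passed and 3 that passed before or after turned. With libraries left out the numbers were 599, 78 and 7, and none turned. Among those that kept their side, 13 and 10 uncalled values changed sign. With the neighbours' deviation removed, EIF3E turned to -0.082 (shAPT1 against control), EEF1AKMT1 to -0.053 (APT1wt against control) and EIF4E to -0.22 (shAPT1 against APT1wt). The cause was not tested.

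In shAPT1 against control (3719 genes, 4 factors higher and 10 lower), the length offset gave 2310 genes, 0 and 3, the deposited values 2326 genes, 0 and 3, and only the 2 groups 1 and 4 factors. Library totals gave 5 lower and neighbour removal 6. In APT1wt against control (3568 genes, 5 and 4), the offset gave 2230 genes and 2 lower, the deposited values 2236 genes and 2 lower, neighbour removal 2260 genes, 3 and 1, only the 2 groups 13 and 6, and DESeq2 7 higher and 2 lower. In shAPT1 against APT1wt (3829 genes, 5 and 14), the offset gave 2371 genes, 2 and 7, the deposited values 2357 genes, 2 and 7, library totals 9 and 8, neighbour removal 9 lower, and only the 2 groups 4 and 10. With library totals 60.0%, 42.0% and 66.4% of all calls were higher in the 3 comparisons, beside 52.5%, 50.3% and 50.7%.

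Leaving out a library gave 2596 to 4094 genes, 0 to 8 factors higher and 3 to 9 lower in shAPT1 against control, 2297 to 4821, 4 to 11 and 2 to 7 in APT1wt against control, and 2545 to 4101, 2 to 7 and 9 to 18 in shAPT1 against APT1wt. In shAPT1 against control each of the 9 libraries moved the factors higher by over 1.5 times: 0 without any control library, 2, 1 and 8 without shAPT1 replicates 1, 2 and 3, and 2 without any APT1wt library. The factors lower moved to 5 and 3 without control replicates 2 and 3, and to 6 without shAPT1 replicate 2. In APT1wt against control, 11 were higher and 7 lower without shAPT1 replicate 1, 2 were lower without control replicate 1, control replicate 2 or APT1wt replicate 3, and 2297 genes passed without APT1wt replicate 3. In shAPT1 against APT1wt, 3 were higher without shAPT1 replicate 2, APT1wt replicate 2 or APT1wt replicate 3, 2 without APT1wt replicate 1, 9 were lower without APT1wt replicate 3, and 2545 genes passed without APT1wt replicate 2.

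Differences in shares from estimated counts in place of TPM were 4.22 percentage points for EIF5A2 (1.74 in TPM) and 33.8 for EIF4EBP2 relative to EIF4E (6.74) in shAPT1, and 7.33 for EIF4EBP2 (2.29) and 6.3 for EIF4EBP1 (15.4) in APT1wt. Counts weigh transcripts by length, so these are another quantity. A replicate block gave 3754, 3625 and 3871 genes, with 4 and 9, 5 and 3, and 5 and 14 factors higher and lower. Replicate numbers share no stated batch, and deviations of same-numbered libraries correlated at -0.058 to 0.085. Factors under 1 TPM, and those that share sequence with other genes, are the least certain.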

Other observations

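Cytosolic aminoacyl-tRNA synthetases charge the tRNAs that eEF1A carries. Of 22 genes tested, for synthetase subunits and the scaffold proteins AIMP1 and AIMP2 of their complex, 4 were higher and none lower in shAPT1 against control (18.2%, beside 24.4% of all genes), by edgeR's quasi-likelihood test with Benjamini-Hochberg adjustment. In APT1wt against control 4 were higher and 1 lower (22.7%, beside 23.4% of all genes), the lower one being AIMP1. NARS averaged 158 ± 0.436 TPM in shAPT1, 126 ± 16.2 in APT1wt and 92.7 ± 4.60 in control (SD, n = 3), with log2 fold changes of 0.61 ± 0.09 (adjusted p = 0.000155) and 0.42 ± 0.09 (adjusted p = 0.00308). With its neighbours' deviation removed they were 0.24 (adjusted p = 0.0335) and 0.16 (adjusted p = 0.154). AARS changed by 0.38 ± 0.11 (adjusted p = 0.0209) in shAPT1, and TARS by 0.36 ± 0.07 (adjusted p = 0.00233) in APT1wt. Of 6 genes of release, rescue and recycling, 1 rose and 1 fell in each comparison (33.3%). GSPT2, a release factor gene, averaged 4.32 ± 0.396 TPM in shAPT1, 1.94 ± 0.0991 in APT1wt and 5.45 ± 0.291 in control, with changes of -0.41 ± 0.12 (adjusted p = 0.0218) and -1.48 ± 0.13 (adjusted p = 2.47e-06). HBS1L, which acts on stalled ribosomes, changed by 0.24 and 0.30. With the neighbours' deviation removed neither change of HBS1L passed, at 0.03 (adjusted p = 0.757) and 0.12 (adjusted p = 0.163), nor did that of GSPT2 in shAPT1, at -0.17 (adjusted p = 0.315).

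Of 11 other mRNAs known as 5′TOP, 3 rose and 1 fell in each comparison with control (36.4%, beside 24.4% and 23.4% of all genes). TPT1 averaged 2078 ± 79.5 TPM in shAPT1, 3072 ± 102 in APT1wt and 1723 ± 69.3 in control, with changes of 0.21 ± 0.07 (adjusted p = 0.0354) and 0.84 ± 0.07 (adjusted p = 1.07e-06). With its neighbours' deviation removed they were -0.11 (adjusted p = 0.277) and 0.20 (adjusted p = 0.0561). VIM, for the filament protein vimentin, changed by -0.25 ± 0.06 (adjusted p = 0.0082) in APT1wt, and with that removal it was at -0.05 (adjusted p = 0.616).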
